A study of Homo sapiens with 3 samples.

Results

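The S100 proteins and the annexins are the calcium-responsive families described here, by the RNA levels of their genes in RCC4. RCC4 is an established line from a human clear cell kidney cancer, without working VHL, the ubiquitin ligase part that marks HIF proteins for decay. The members were taken by gene symbol, as S100A with a number and at times a letter, S100B, S100G, S100P, S100Z and ANXA with a number. That gave 33 of the 60605 genes listed, 21 of the S100 family (S100A15A, a pseudogene, among them) and 12 annexins. All 3 libraries came from one condition: RCC4 cells carrying a lentiviral Cas9 vector, kept for 24 h with IFN-gamma at 1000 U/mL and TNF at 25 ng/mL. The labels call them biological replicates grown in 3 flasks each. No untreated group entered the comparison, so every value is a level in treated cells and none is a response to the cytokines. Nothing in the labels says that the flasks came from separate thaws or passages, so the spread may be partly technical.

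S100 proteins are small, mostly dimeric proteins built on a pair of EF-hand loops, which open a binding face for target proteins when calcium rises. S100A10 is the exception, since it has lost calcium binding and stays in the open form. Annexins bind acidic phospholipids in a calcium-dependent way through a repeated core, and act in membrane trafficking, membrane repair and the organisation of cortical actin. Some members of the families act together: ANXA2 joins an S100A10 dimer in a tetramer that sits under the plasma membrane and binds plasminogen at the cell surface, and ANXA1 pairs with S100A11. S100A8 and S100A9 form calprotectin, an abundant protein of neutrophils and monocytes.

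The libraries held from 26264283 to 33458691 reads assigned to genes. Levels are given as RPKM, reads scaled to library size by TMM and divided by the length of all annotated exons, and a gene counted as detected at 1 CPM (the same scale without the length) or more in every library. Replicate 1 stood apart from replicates 2 and 3 along the GC content of transcripts. The common biological coefficient of variation was 0.282 over 3 libraries and 0.0726 without replicate 1. Renal markers were present, with 11 of 12 detected against 51.4% of all protein-coding genes, LRP2 being the exception at 0, 2 and 0 reads. The detected ones ran from KRT8 at 147 ± 29.6 RPKM (SD, n = 3) down to CUBN at 0.125 ± 0.00943 RPKM, from 42, 48 and 58 reads. Markers of other cell types were sparse, with 2 of 10 detected for myeloid cells, 1 of 8 for keratinocytes, 1 of 6 for fibroblasts, 0 of 5 for endothelium and 0 of 5 for glia and melanocytes. Of the markers, 1 renal, 1 myeloid and 2 of glia and melanocytes have 80% or more of their exons inside other genes' spans. Among protein-coding genes placed so, 8.75% were detected.

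The S100 family was split between a few abundant transcripts and many that were near or at 0. Of 21 genes 5 were detected (23.8%), against 51.4% of all protein-coding genes. Another 6 had some reads and 10 were listed at 0 in every library. The median over all 21 members was 0.0349 RPKM, against 0.483 RPKM for protein-coding genes. Of the annexins 10 of 12 were detected (83.3%), and 7 of 12 at 10 CPM or more in every library, where the S100 count stayed at 5. No annexin was listed at 0 in every library, and their median was 17.8 RPKM. The detection threshold took no account of gene length. Median exon length was 1025 bases for S100 genes, 4758 for annexins and 4232 for protein-coding genes. S100A4 at 0.671 RPKM was not detected, whereas ANXA13 at 0.622 RPKM was. Whether length shaped the detected shares was not tested. S100 genes took 0.148% ± 0.0116 (SD, n = 3) of the reads and annexins 0.226% ± 0.00896.

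**Figure D1:**
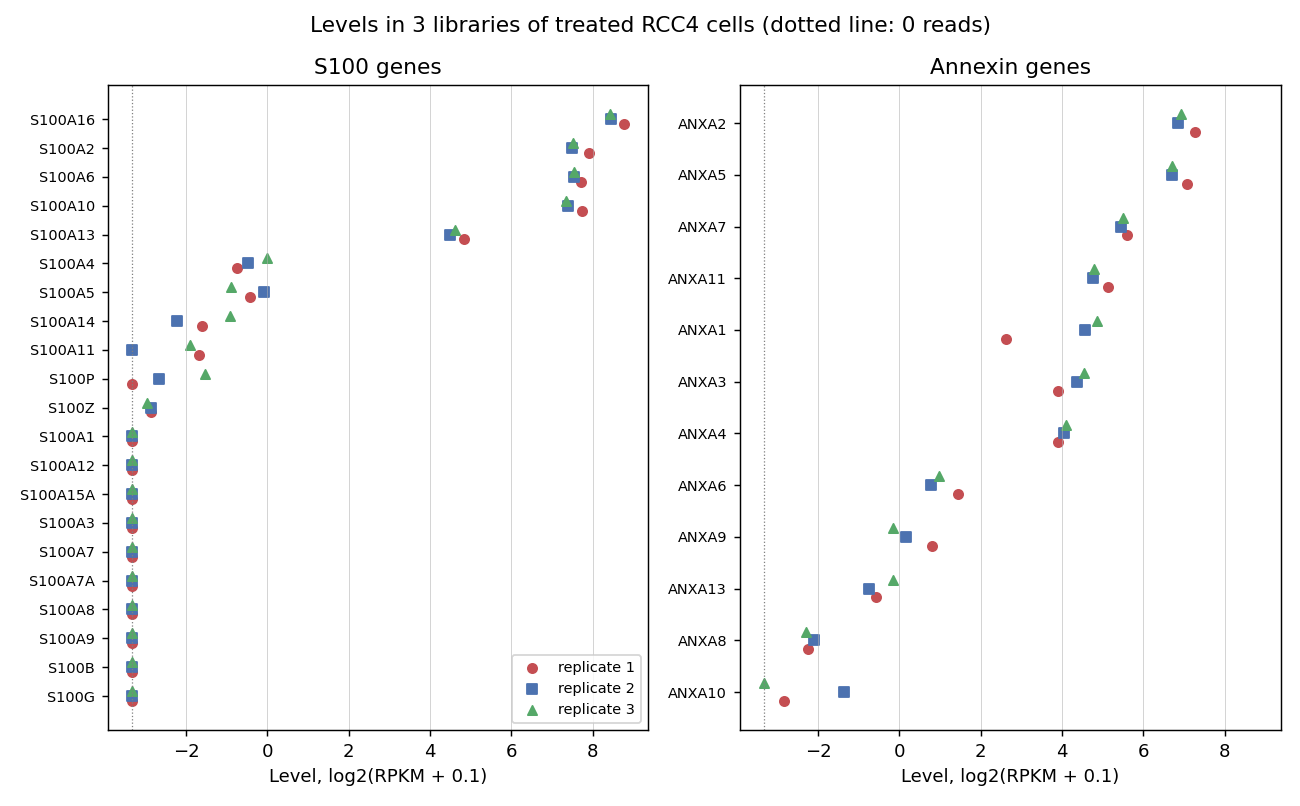
Level of each S100 gene (left) and annexin gene (right) in the 3 libraries, as log2(RPKM + 0.1) on the x axis, with genes ordered by their mean. The 5 detected S100 genes stand far to the right of the other 16, at mean levels of 25.1 RPKM or more, whereas the annexins spread from 0.109 to 130 RPKM. ANXA1 has a replicate 1 value well to the left of its other values.

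Sequence before the RefSeq start of transcription was compared between members, since the families differ in how many members were detected. S100A9, listed at 0 in every library, is shown for the 200 bases before its start (chr1:153357654-153357853, plus strand, GRCh38.p14), with CG dinucleotides and the TATA box TATAAA in capitals.
S100A9: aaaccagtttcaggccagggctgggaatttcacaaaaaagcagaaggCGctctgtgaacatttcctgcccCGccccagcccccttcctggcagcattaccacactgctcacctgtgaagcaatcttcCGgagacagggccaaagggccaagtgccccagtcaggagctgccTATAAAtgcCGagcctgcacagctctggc
For other members a stretch of 30 bases is shown, with TATAAA in capitals where it occurs. The first 6 are S100 genes that have it, then come 2 annexins that have it and 2 highly expressed members without these exact letters. Near matches, such as tataag in the S100A6 stretch, were not searched for. S100A8 and S100A13 each have 3 windows, of which the one with the TATA box is shown. Each 30-base stretch lies wholly inside exons annotated on either strand in GENCODE 29, whereas the S100A9 stretch lies in none. The short stretches thus precede a RefSeq start but not every annotated transcript. All sequences run 5′ to 3′ and are from RefSeq on GRCh38.p14: S100A8 at chr1:153391085-153391114 (minus), S100A12 at chr1:153375612-153375641 (minus), S100A7 at chr1:153460662-153460691 (minus), S100A4 at chr1:153545820-153545849 (minus), S100P at chr4:6693838-6693867 (plus), S100A13 at chr1:153627517-153627546 (minus), ANXA2 at chr15:60398000-60398029 (minus), ANXA1 at chr9:73151822-73151851 (plus), S100A6 at chr1:153536004-153536033 (minus) and ANXA5 at chr4:121696993-121697022 (minus).
S100A8: aagcctaaccgcTATAAAaaggagctgcct
S100A12: gcctgaactgatTATAAAaccttccttggc
S100A7: caggctgagcctTATAAAggactgctcttt
S100A4: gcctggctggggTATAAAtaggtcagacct
S100P: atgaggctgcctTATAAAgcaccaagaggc
S100A13: ttccccgctgctTATAAAcctcagccctga
ANXA2: ggatgtggcgggTATAAAagccccacccag
ANXA1: cctttaaaatccTATAAAatcagaagccca
S100A6: ggcaccgaccgctataaggccagtcggact
ANXA5: cagggccggggtggggccgctggcgtttcc
In S100A9, S100A8 and S100A13 the TATA box began 29 bases before the start, and in S100A7 and S100P 28. It began 31 bases before the start in S100A4, ANXA1 and ANXA2. In S100A12 the letters TATAAA began 8 bases before the start, and in S100Z, counted below, 11. For S100A12 and S100Z they are given as a match of letters only. In S100A6 and ANXA5, without the exact TATAAA, the stretch begins 42 bases before the start.

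RefSeq windows were found for 29 of the 33 members (not for S100A15A, S100B, ANXA8 and ANXA13). TATAAA on the coding strand within 50 bases before a start occurred in 13 of the 29 (44.8%), against 3.33% of all 27305 genes with a window. Of the 13, 9 were S100 genes that were not detected: S100A4, S100A7, S100A7A, S100A8, S100A9, S100A12, S100G, S100P and S100Z. The others were S100A13, ANXA1 and ANXA2, which were detected, and ANXA10. Since only 5 of all 21 S100 genes were detected, the 9 do not measure a link between TATAAA and detection, which was not tested. The letters of AP-1 sites and CCAAT boxes were also searched for and are not given here. Over the 250 bases before each start, the windows of detected annexins held a median of 19 CG dinucleotides, those of detected S100 genes 8 and those of S100 genes not detected 4, against 11 for all windows. S100A10, S100A6, ANXA2 and ANXA5 held 24, 24, 28 and 31, S100A9 held 4 and ANXA1 none. The windows of S100A16, the highest S100 gene, and of S100A2, whose level was near that of S100A6, held 1 to 6. These matches describe the letters of the windows only.

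S100A16, a widely expressed member whose function is little defined, had the highest level of both families per kilobase of all exons, at 436, 352 and 345 RPKM in replicates 1, 2 and 3. Its mean of 378 ± 50.8 RPKM (SD, n = 3) placed it 66th among 19861 protein-coding genes. Per kilobase of the longest coding transcript it stood at 560 ± 75.3 RPKM, below ANXA2 at 686 ± 107. S100A2, an epithelial member known to bind p53, stood at 243, 180 and 183 RPKM. S100A6, or calcyclin, stood at 209, 187 and 186 RPKM. S100A10, the annexin 2 partner, stood at 213, 168 and 164 RPKM. In each of these genes replicate 1 was the highest library, and replicates 2 and 3 lay close together.

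S100A16 exceeded S100A2 by 0.91 ± 0.06 on the log2 scale, a 1.88-fold difference with the same sign in 3 of 3 libraries. Here and for other ratios, past the spread means the same sign in all 3 libraries and a mean of more than 2 SD. With 3 libraries an exact permutation test cannot give a p below 0.25, so none is printed. The steps from S100A2 to S100A6 and from S100A6 to S100A10, at 0.04 ± 0.15 and 0.11 ± 0.12, did not pass the spread. S100A2 exceeded S100A10 by 0.15 ± 0.04, in 3 of 3 libraries and past the spread, and by 0.44 ± 0.04 with the longest coding transcript. Of the S100A6 exons 26.3% lie inside another gene's span, and with the exon length outside other spans S100A6 was above S100A2, which had a log2 ratio to it of -0.40 ± 0.15. The next member, S100A13, which takes part in the unconventional release of FGF1 and IL1A, had 28.3, 22.5 and 24.5 RPKM. Per kilobase of all exons S100A10 exceeded it by a log2 ratio of 2.85 ± 0.09, or 7.22-fold, and with the longest coding transcript by 1.52 ± 0.09. With the exon length outside other spans S100A13 stood at 211 RPKM and the S100A10 ratio turned to -0.22 ± 0.09, so its place depends on the length used.

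Below these 5 genes came members with few reads. S100A4, known for binding nonmuscle myosin and for its part in cell motility and metastasis, had 14, 17 and 32 reads. None of its exon length lies inside other genes' spans. Against S100A6, from the same stretch of the chromosome, the log2 ratio was -8.22 ± 0.51, with no overlap between their libraries. S100A5 had 14, 18 and 12 reads and S100A14, an epithelial member, 8, 4 and 19. S100P had 0, 2 and 11 reads and S100Z 2 in each library. These 4 genes were too thinly covered for their order to be read.

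The inflammatory members of the family were listed at 0 reads in every library. They are S100A8 and S100A9, the subunits of calprotectin, S100A12 of granulocytes, and S100A7 and S100A7A of keratinocytes, and no exon of the 5 lies inside the span of another gene. S100B, best known from glia and melanocytes, was likewise listed at 0. In the same libraries PTPRC, MPO and TYROBP were listed at 0 among the myeloid markers, and KRT5, KRT14, KRT1 and KRT6A among the keratinocyte markers. The detected markers of these lists were CSF1R, with 118, 102 and 159 reads, and ITGAM, with 46, 32 and 52, among the myeloid genes, and KRT10 at 11.4 ± 1.09 RPKM among those of keratinocytes. RPL15 and SDHA, which every cell needs, also had 0 reads, so a 0 in these files says only that the gene was listed so.

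Genes whose exons lie inside another gene's span were rarely detected in this table, and 5 S100 genes have 80% or more of their exon length placed so. Over all protein-coding genes, 8.75% of such covered genes were detected, against 59.5% of the others. S100A11, the ANXA1 partner, is known as an abundant protein of many epithelial cells and had 4, 0 and 4 reads. Of its exon length 87.4% lies in the span of an antisense gene on the opposite strand (ENSG00000229021, GRCh38 chromosome 1, 151994531 to 152042774), which itself had 16, 12 and 8 reads. S100A3, inside the span of S100A4, S100A1, inside those of S100A13 and noncoding genes, and S100G, the vitamin D-dependent calbindin inside CTPS2, were listed at 0, with 100% of their exons covered. S100A13 was the only one of the 5 detected, with 88.1% covered. Whether overlap took the reads of S100A11, S100A1, S100A3 and S100G was not tested. No annexin had 80% or more of its exons covered.

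Most of the S100 family lies in a cluster on chromosome 1, where the detected genes were not spread evenly. From S100A9 to S100A1 it holds 15 members in 274 kb (GRCh38, 153357854 to 153632039). The first 6, S100A9, S100A12, S100A8, S100A15A, S100A7A and S100A7, fill 103 kb and were all listed at 0. Beyond a gap of 73.9 kb lie the other 9, of which 4 were detected: S100A6, S100A2, S100A16 and S100A13. S100A10 and S100A11 lie apart from these, nearer the centromere. The 4 members on other chromosomes, S100P, S100Z, S100B and S100G, were not detected.

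**Figure D2:**
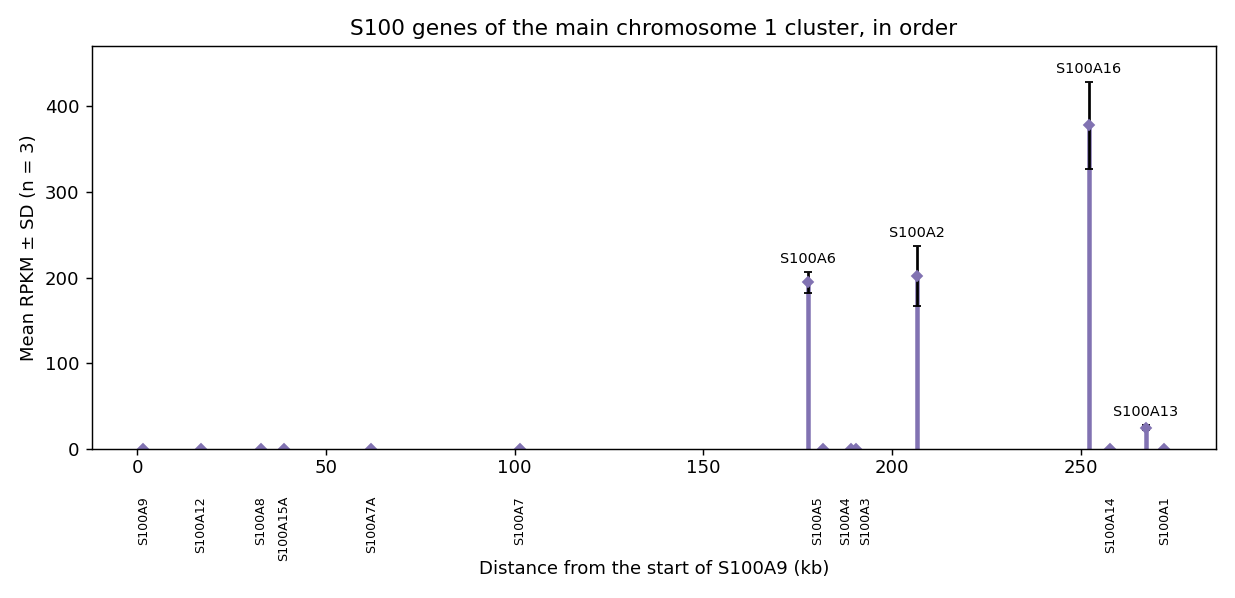
Mean RPKM ± SD (n = 3) of the 15 S100 genes of the chromosome 1 cluster, placed by the distance of their midpoint from the start of S100A9 in kb. The 6 genes within the first 103 kb are at 0, and S100A6, S100A2 and S100A16 rise to 194, 202 and 378 RPKM in the stretch beyond the gap, where S100A13 stands at 25.1 RPKM and the other 5 genes are below 1 RPKM.

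The cluster sits within the epidermal differentiation complex, a stretch of genes for the outer layers of skin. Of 19 listed genes of that complex or beside it, 6 of them covered by other spans, 3 were detected, against 51.4% of protein-coding genes: ILF2, an RNA-binding protein, at 110 ± 12.9 RPKM, CHTOP at 16.8 ± 1.25 RPKM and SNAPIN at 12.8 ± 2.09 RPKM. These 3 are general cellular genes near S100A1. TCHH, a structural protein of hair follicles with an S100-like start, was the next highest at 14, 43 and 65 reads. Of the list 12 genes were listed at 0, among them the S100-fused FLG, HRNR and RPTN, which are covered by other spans, and LCE3D, SPRR1B and SPRR2A, which are not.

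Among the annexins, ANXA2 and ANXA5 led. ANXA2, which links membranes to actin and forms the S100A10 tetramer, stood at 154, 116 and 121 RPKM and took 50.7% of the family's scaled reads. ANXA5, which binds phosphatidylserine and is used to stain dying cells, stood at 135, 104 and 104 RPKM. ANXA2 exceeded ANXA5 by 0.19 ± 0.03 on the log2 scale, in 3 of 3 libraries, but with GC correction the difference of 0.19 ± 0.10 was within 2 SD. ANXA7, or synexin, followed at 48.1, 43.8 and 45.4 RPKM. ANXA11, a partner of PDCD6 and S100A6 that tethers RNA granules to lysosomes, stood at 35.0, 27.3 and 27.6 RPKM.

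Per kilobase of all exons, ANXA1, ANXA3 and ANXA4 came next. ANXA1, an anti-inflammatory mediator induced by glucocorticoids, had 6.09, 23.4 and 29.1 RPKM, from 761, 2879 and 4605 reads. Its replicate 1 lay far below the other libraries, and the mean was 19.5 ± 11.98 RPKM with it and 26.2 RPKM without it. ANXA3 stood at 14.9, 20.6 and 22.99 RPKM and ANXA4, an annexin of secretory epithelia, at 14.9, 16.5 and 17.1 RPKM. No step between neighbours from ANXA11 through ANXA1 and ANXA3 to ANXA4 passed the replicate spread. The log2 ratio of ANXA3 to ANXA4 was 0.25 ± 0.22, and it passed the spread without replicate 1, at 0.38. With the longest coding transcript its sign turned, at -0.10, within the spread. That length gave ANXA4 63.8 ± 4.42, ANXA3 60.3 ± 12.9 and ANXA1 40.3 ± 24.7 RPKM, against 53.4 ± 2.52 for ANXA7 and 36.6 ± 5.38 for ANXA11. The log2 ratio of ANXA4 to ANXA11 thereby turned from -0.88 ± 0.30 to 0.81 ± 0.30, past the spread both times, and that of ANXA4 to ANXA7 from -1.50 ± 0.16 to 0.25 ± 0.16, within it.

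The remaining annexins were low. ANXA6, which has a duplicated core, had 2.62, 1.62 and 1.87 RPKM and lay below ANXA5 with a log2 ratio of -5.83 ± 0.16, or 56.9-fold. ANXA9 had 82, 50 and 51 reads, and ANXA13, an annexin of intestine and kidney epithelium, had 60, 51 and 105 reads. Both were just detected, at 1.15 ± 0.433 and 0.622 ± 0.154 RPKM. ANXA8 had 15, 18 and 18 reads and ANXA10, an annexin of the stomach, 2, 14 and 0, and neither was detected.

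Some reads of ANXA2 cannot be told from those of a processed pseudogene. ANXA2P2, an intronless copy on chromosome 9, had 1949, 1420 and 1740 reads, or 5.25%, 5.14% and 4.70% of the ANXA2 reads. Of its 50-base words 59.2% also occur in ANXA2 transcripts, so the split between them is uncertain. Of the words in all annotated ANXA2 transcripts 5.91% occur in ANXA2P2. ANXA8L1 shares 81.2% of its words with ANXA8 and was listed at 0. Of 16 genes with an S100 or ANXA symbol outside the rule, 14 were listed at 0. The remaining one with reads, S100PBP, is a binding protein and no copy.

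The ANXA2 and S100A10 transcripts kept a nearly constant ratio over libraries, whose direction depended on the gene length used. Per kilobase of all annotated exons, ANXA2 lay below S100A10 in each library, with log2 ratios of -0.47, -0.53 and -0.44 and a mean of -0.48 ± 0.04. So small an SD was not particular to these partners. It was 0.03 for ANXA2 to ANXA5 and 0.04 for S100A2 to S100A10, while the other ratios formed varied more. With the longest protein-coding transcript in its place the ratio was 1.56 ± 0.04, with ANXA2 above S100A10 2.94-fold. The exons annotated for ANXA2 add up to 8824 bases, and its longest coding transcript has 1676, against 1543 and 1202 bases for S100A10. A fixed length leaves the spread over libraries as it is, so the SD of 0.04 says nothing of which length is right, and which partner is higher cannot be told from these data.

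ANXA11 lay below S100A6, one of its binding partners, by log2 ratios of -2.58, -2.78 and -2.76, or -2.71 ± 0.11. It kept that direction with the longest coding transcript, at -2.94 ± 0.11. S100A13 lay below S100A16 under all 3 lengths, at -3.91 ± 0.08 per kilobase of all exons, -2.79 ± 0.08 with the longest coding transcript and -0.84 ± 0.08 with the exon length outside other spans. ANXA2 exceeded ANXA1 by 3.01 ± 1.43, by 2.18 without replicate 1, and by 3.36 without replicate 2, where it no longer passed the spread. Of the 16 pairs planned 10 could be formed and 9 passed the replicate spread. How often other pairs of genes pass it was not counted, so the 9 mark no trait of these pairs. The pairs ANXA1 with S100A11 and S100A8 with S100A9 were not formed, for want of reads in S100A11, S100A8 and S100A9.

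**Figure D3:**
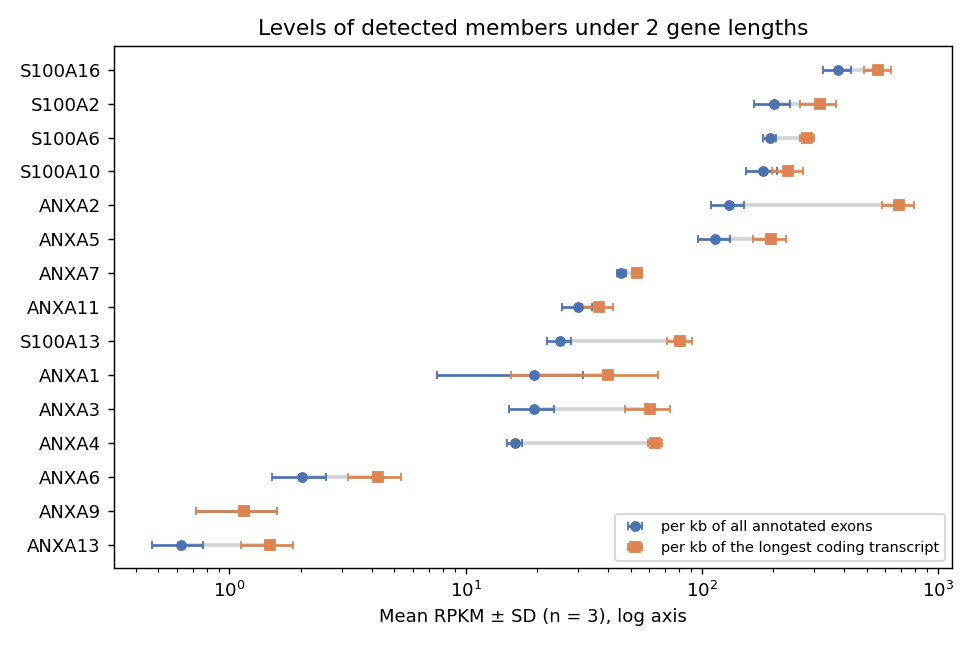
Mean RPKM ± SD (n = 3, log axis) of the 15 detected members, per kilobase of all annotated exons (circles) and per kilobase of the longest coding transcript (squares). ANXA2 moves from 130 to 686 RPKM and becomes the highest member, while S100A16, S100A2 and S100A6 keep their order among the S100 genes.

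Replicate 1 differed from the other libraries in opposite directions within these families. Of the 13 members with a mean of 5 CPM or more, 10 were highest in replicate 1, where 50.5% of protein-coding genes of that level were, and 3 (ANXA1, ANXA3 and ANXA4) were lowest in it. ANXA1, with a transcript GC content of 39.5%, had a replicate 1 level at a log2 ratio of -2.11 to the average of the other libraries, and the median of protein-coding genes in its GC bin was -1.28. After GC correction its ratio was -0.98. It was the only one of the 13 below 50% of the other libraries, a state shared by 14.0% of protein-coding genes. None of the 13 was more than 2-fold above them, against 0.0440% of those genes. The 5 S100 genes, at 51.3% to 59.9% GC, had ratios from 0.16 to 0.42. ANXA5 and ANXA7 were at 0.38 and 0.11 where the medians of their bins were -0.12 and -0.25. Between replicates 2 and 3 the coefficient of variation of the 13 ran from 0.335% for S100A6 to 15.2% for ANXA1.

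**Figure D4:**
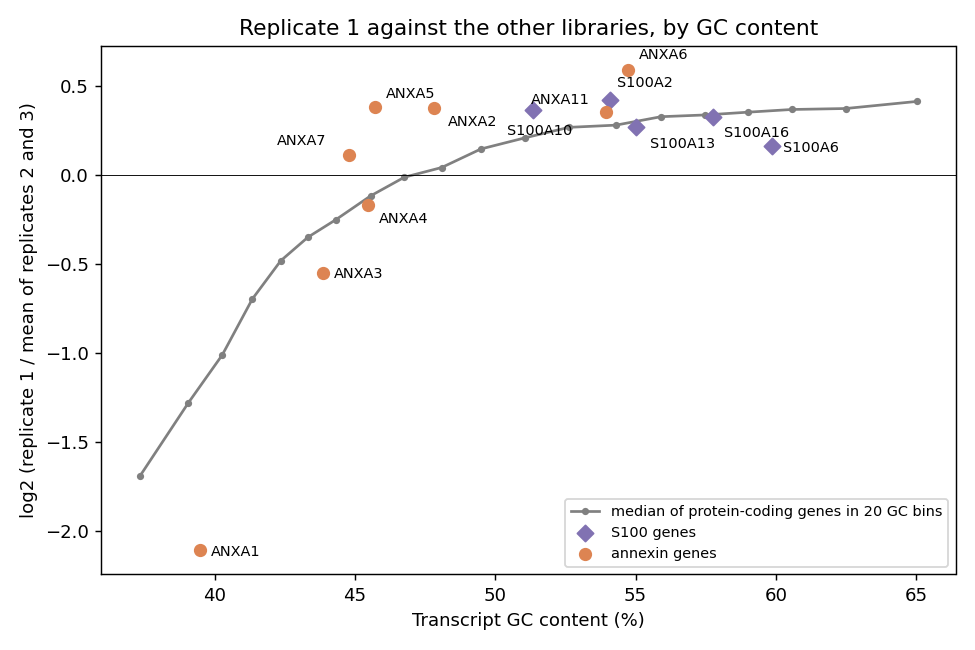
Replicate 1 level over the average of the other libraries as a log2 ratio (y axis) against transcript GC content in percent (x axis), for the 13 members with a mean of 5 CPM or more, over the median of protein-coding genes in 20 GC bins (grey line). ANXA1 lies lowest at -2.11 and the S100 genes sit between 0.16 and 0.42.

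Transcripts of proteins known to bind these families were counted by list, beside the 51.4% of all protein-coding genes that were detected and their median of 0.483 RPKM. Of 27 intracellular partners 20 were detected, with a median of 22.4 RPKM, and 3 of the 27 were covered by other spans. MYH9, the myosin bound by S100A4, stood at 811 ± 139 RPKM, EZR, a target of S100P, at 243 ± 32.5, AHNAK, the scaffold bound by the ANXA2 tetramer, at 189 ± 32.4, and the calpain subunit CAPNS1 at 145 ± 26.6 RPKM. The lowest were listed at 0, among them PLA2G4A and TRPV5 outside other spans and PDCD6 with 81.2% of its exons inside them. The membrane repair list had 8 of 11 detected, against the same 51.4%, led by CHMP4B of the ESCRT machinery at 182 ± 19.5 RPKM and the caveolar protein CAV1 at 179 ± 30.6. SYT7, OTOF and TRIM72 were not detected.

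Of 14 receptors and extracellular partners 6 were detected, near the 51.4% of all protein-coding genes, with a median of 0.0352 RPKM, and 4 of the 14 were covered by other spans. The difference between the lists was not tested. BSG, a receptor for S100A9, stood at 247 ± 39.1 RPKM, EGFR at 33.9 ± 3.68, ALCAM at 30.6 ± 16.8 and NPTN, which binds S100A8, at 14.9 ± 0.990 RPKM. AGER, the multiligand receptor RAGE, had 68, 96 and 116 reads, and FPR1, a formyl peptide receptor that ANXA1 engages, 108, 76 and 91. TLR4, FPR2 and FPR3 were listed at 0, each with 100% of its exons inside other spans. In the plasminogen system 7 of 9 were detected, against 51.4% of protein-coding genes, with ENO1 at 846 ± 181 RPKM and the urokinase receptor PLAUR at 41.1 ± 4.63. PLAT, the tissue activator that the ANXA2 tetramer binds, had 179, 188 and 250 reads. PLG was listed at 0, and PLAU, 96.0% covered, had 0, 0 and 2 reads.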

How the data were processed

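Poly(A) RNA from 3 libraries of 1 treated group was analysed. The submitters' processing notes name hg38 and the tools FastQC, cutadapt 1.18, HISAT2 2.1.0 and featureCounts 2.0.0. The annotation release and strand setting behind the counting were not given in the sources used here. One table deposited by the authors holds a normalized signal, which the values show to be gene counts over one scaling number per library: 100% of nonzero values were whole multiples of 1 read within 0.01 of a read. The planned design presumed raw counts, and the recovered reads took their place. They were 29199806, 26264283 and 33458691 in replicates 1, 2 and 3. Reads are not independent molecules.

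Library sizes were corrected by TMM (edgeR 4.0.16 under R 4.3.3), with DESeq2 1.42.0 size factors as an alternative. Of the 60605 identifiers 58337 (96.3%) matched GENCODE 29 (GRCh38), which gave exon lengths, GC content and overlaps, and whose release need not be the authors'. Median levels used log2(RPKM + 0.1). GC correction was a lowess fit per library. The members and lists were chosen with earlier results of these data known. All members are named, copies outside the rule with 10 reads or more, and of each companion list up to 4 of the highest and 3 of the lowest genes, with other list members and equal zeros chosen after their values were seen. Some items that the rule would name are not reported here. The steps were tested on simulated data, in part with a biological coefficient of variation of 0.1, below the 0.282 of these libraries. Since all libraries belong to 1 group, groups could not be tested.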

Additional observations from a re-analysis of the deposited data

How the results depend on the processing

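No paired analysis was possible because there is only 1 group. The number of detected S100 genes was 5, with 8 at 0.1 CPM, 7 at 10 reads and 5 at 10 CPM, and that of annexins was 10, with 11, 11 and 7. Leaving out each replicate gave 5 and 10 each time. The S100 median level of -2.89 (log2) was -2.04 with the exon length outside other spans, -2.57 without length scaling, 0.0495 and -4.48 with pseudocounts of 1 and 0.01, and 7.60 over detected members only. The annexin median of 4.02 was 5.12 with the longest protein-coding transcript and 6.41 without length scaling. The ANXA2/S100A10 log2 ratio of -0.48 reversed to 1.56 with the longest protein-coding transcript, a length that departs from all exons more for ANXA2 than for S100A10. It reversed to 2.03 without length scaling, which leaves out exon lengths of 8824 bases for ANXA2 and 1543 for S100A10. Without length scaling, ANXA11/S100A6 was 0.43, ANXA7/ANXA11 -0.95 and ANXA3/ANXA4 -0.86, each in the opposite direction. The count of members below 50% of the other libraries in replicate 1 was 1, and became 0 with GC correction and 3 with no filter on low values (S100P and ANXA10 were added). ANXA2/ANXA1 lost its call without replicate 2 and ANXA2/ANXA5 with GC correction, and leaving out a replicate gave 8 to 10 pairs past the spread. Adding the ANXA2P2 reads to ANXA2, chosen after seeing the data, kept the direction of its 3 ratios. The S100A2/S100A10 ratio, and the ratios of S100A10 to S100A13 and among ANXA4, ANXA7 and ANXA11 under other lengths, were also added after seeing the data. Genes of few reads, such as S100P and ANXA10, limit what can be said at this depth.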
